A study of Mus musculus with 6 samples.

Results

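The vascular connexin genes are Gja1, Gja4, Gja5 and Gjc1, which encode the gap junction proteins Cx43, Cx37, Cx40 and Cx45. The 4 genes were taken by name from the gene rows, out of 28327 genes listed in any single-cell table and 49492 genes in the bulk tables. All 4 had counts in both kinds of data. The study measured glomeruli, the filtering vessel tufts of the kidney, isolated from male CD1 IGS outbred mice at 8 weeks of age, with 4 Drop-seq libraries (replicates 1 to 4) and 2 bulk mRNA libraries. Drop-seq captures single cells in droplets and counts unique molecular identifiers (UMIs), 1 per captured transcript. The Drop-seq cells came from dissociated glomeruli and were fixed in 80% methanol. The first bulk library held dissociated, fixed and sorted glomerular cells (95 ng of total RNA), and the second held whole glomeruli taken live, without fixation (500 ng). No genotype or treatment differed between the samples, and the labels do not say how many mice stood behind each library.

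Gap junctions are channels that join the cytoplasm of neighbouring cells and let ions and small signalling molecules pass. Each is built from connexins, and connexins differ in the cell types that make them. In vessel walls, Cx37 and Cx40 are known from endothelium, above all of arteries, Cx43 from endothelium where flow is disturbed, and Cx45 from smooth muscle. In the kidney, Cx40 of renin-producing and mesangial cells is known to be needed for the pressure control of renin release.

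In GENCODE's GRCm38 annotation, Gja1 lies on the plus strand of chromosome 10 (56377330 to 56402513), Gja4 on the minus strand of chromosome 4 (127311421 to 127314039), Gja5 on the plus strand of chromosome 3 (96904693 to 97077416) and Gjc1 on the minus strand of chromosome 11 (102799579 to 102819700). The span of Gja5 overlaps other genes, among them Gpr89 and 2 antisense genes on the other strand, so its counts carry that uncertainty where strand was not used in counting. RefSeq's promoter table (GRCm38.p6) held 3 of the 4 members. The 100 bases before the RefSeq start are shown for these members. Within the endothelium, Gja1 and Gja4 were both highest in arterial-type cells. Gja5 was sparse, and 8 of its 11 endothelial UMIs lay in arterial-type cells too. Capitals mark motif matches.
Gja1, chr10:56377200-56377299, plus strand: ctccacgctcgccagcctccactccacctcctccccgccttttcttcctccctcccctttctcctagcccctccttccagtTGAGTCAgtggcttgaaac
Gja4, chr4:127314040-127314139, minus strand: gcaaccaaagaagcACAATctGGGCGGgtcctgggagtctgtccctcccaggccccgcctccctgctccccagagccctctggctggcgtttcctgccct
Gja5, chr3:97032302-97032401, plus strand: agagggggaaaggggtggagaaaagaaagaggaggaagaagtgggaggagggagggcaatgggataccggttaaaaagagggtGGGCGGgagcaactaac
The motifs were searched on both strands in the table's windows of 250 bases before to 50 bases after the start. The AP-1 motif TGANTCA stood in Gja1 at -19, and 7.81% of 32851 promoters held it. The GC box GGGCGG stood in Gja4 at -79 and in Gja5 at -17 (35.7% of promoters), the SOX core ACAAT in Gja4 at -86 (31.0%), and TATAAA in none of the 3 windows (13.6%). The matches do not overlap, and a match is a string of letters, not a shown binding site.

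In Drop-seq, 15465 barcodes carried 18557558 UMIs. Cells needed 300 or more genes and a mitochondrial share of no more than 20%, which left 13993 (median 965 UMIs a cell). Of the kept barcodes, 3 occurred in 2 libraries. Cells were clustered without the connexins, the pannexins and the lists of partners and regulators used below, and the clusters were named from marker genes. This gave 10551 podocyte-like, 1850 endothelial-like, 923 tubular-like, 323 mural-like (smooth muscle, renin and mesangial markers), 293 parietal epithelial-like and 53 immune-like cells. Podocyte markers were found in the vascular types too, where their 8 genes summed to 3992 CPM (UMI counts-per-million) in endothelial-like cells and 3026 CPM in mural-like cells, against 20066 CPM in podocyte-like cells. The endothelial-like share of kept cells differed between libraries and ran from 7.05% to 22.3%. Within endothelial-like cells, 168 were arterial-type, led by Mgp, Igf2 and Vcam1. They scored 1.98 on the arterial markers and 1.26 on the next best endothelial list, and Vcam1 is itself a marker on the list for other capillaries and veins. A group of 650 was led by Calca, Tspan8 and Serpinb1a, and scored only 0.193 on the capillary markers. Another 823 were led by Hbb-bt, Hbb-bs and Cd14, with Ehd3 and Nostrin, markers of the glomerular capillary, among their 10 leading genes. These are called Hbb-bt-led below. Their score on the red blood cell markers, 1.78, was above their capillary score of 1.24, and the Calca-led cells scored 0.426 for red blood cell markers. With the Calca-led cells they make up the other named endothelial-like cells. The split depended on the clustering. At a finer subcluster resolution of 0.8, a group of 362 cells led by Calca was named arterial too, with a score of only 0.203. At that resolution 35 cells were named other capillary and venous. Within mural-like cells, 123 were smooth muscle-type (named on score, led by Mzt2, Map9 and Abt1, with no smooth muscle marker among the 10 leading genes), 98 carried the most renin (led by Tcap, Ren1 and Olfr558) and 64 were mesangial-type (led by Ptn, Ctla2a and H2-Q1). The renin-carrying group was picked by its renin score (1.46) after the clusters were seen. Its smooth muscle score was higher still (1.87), and above that of the smooth muscle-type cells (1.61). The smooth muscle markers summed to 24241.8 CPM in renin-carrying and 19263.5 CPM in smooth muscle-type cells. The name smooth muscle-type thus does not mark the mural-like cells with the most smooth muscle markers. The mural split depended on the clustering too. At a subcluster resolution of 0.3, no group was named smooth muscle-type, and the renin-carrying group held 227 cells. At 0.8, groups of 55 and 62 cells were named smooth muscle-type and groups of 26 and 73 cells renin-carrying. A further 209 endothelial-like and 38 mural-like cells were led by podocyte genes and stayed unnamed.

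Gja1 UMIs lay almost wholly in endothelial-like cells, which held 90.4% of its 114 UMIs. Endothelial-like cells of replicates 1 to 4 had 34.1, 73.7, 65.9 and 111 CPM, a mean of 71.1 ± 31.5 (SD, n = 4). Podocyte-like cells had at most 0.870 CPM in any library, tubular-like cells at most 6.07 CPM and parietal epithelial-like cells 1 UMI in all. The endothelial-like libraries thus stood above the libraries of every other type. Gja1 passed the filter on low counts only through its endothelial-like sums, since no library of another type had more than 9.27 CPM. In edgeR's quasi-likelihood test on counts summed per library and type, Gja1 was higher in endothelial-like cells than in podocyte-like cells by 6.78 on the log2 scale (SE 0.434, adjusted p = 1.11e-24), where 33.5% of 7505 genes tested were higher. Against tubular-like cells the log2 difference was 5.24 (SE 0.595, adjusted p = 1.57e-12; 33% of genes higher), and against parietal epithelial-like cells 4.72 (SE 0.888, adjusted p = 9.20e-06; 19.7% higher). Without replicate 1, which held the parietal epithelial-like UMI, that type was at 0, so the size of this last difference rests on 1 UMI. It ran from 3.90 to 9.16 over the 12 alternatives that gave a value.

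No Gja1 UMI was found in any of the 323 mural-like cells, which allows a share of up to 0.929% of cells with a UMI and a level of up to 10.01 CPM. This limit is a floor of 3 counts taken over the group. The pooled endothelial-like level of 70.7 CPM was 7.06-fold the limit, and the pooled arterial-type level of 274 CPM was 27.4-fold. Neither ratio is a lower bound, since both leave out the spread of the higher level. Single libraries ran from 34.1 to 111 CPM in endothelial-like and from 72.6 to 468 CPM in arterial-type cells. Mural-like cells were not free of endothelial RNA: their 9 endothelial markers summed to 774 CPM (285 to 1127 over libraries), against 8046 CPM (7728 to 8462) in endothelial-like cells.

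Gja4, the gene of Cx37, marked both vascular compartments. Endothelial-like cells had 108, 147, 142 and 227 CPM in replicates 1 to 4 (156 ± 50.3, SD, n = 4), and mural-like cells had 195, 296, 237 and 153 CPM (220 ± 61.4). Podocyte-like cells had at most 2.38 CPM in any library, and parietal epithelial-like and tubular-like cells 1 and 5 UMIs in all. Both vascular types stood above all libraries of the other 3 types, and their own ranges overlapped. Against the mean of the other types, Gja4 was higher in endothelial-like cells by 4.58 (log2, SE 0.273, edgeR adjusted p = 9.53e-27; 30% of genes tested were higher) and in mural-like cells by 4.90 (SE 0.390, adjusted p = 4.85e-19; 12.4% of genes higher). Endothelial-like and mural-like cells themselves differed by -0.25 (SE 0.274, edgeR adjusted p = 0.577), which did not pass the test.

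Most mural-like cells with Gja4 carried no endothelial marker. Of the 43 mural-like cells with a Gja4 UMI, all 43 also had a UMI of a mural marker, and 14 had one of an endothelial marker, a kind of cell that made up 22.3% of all mural-like cells. With the cells that held a marker of the other vascular type left out of both types, the mural-like difference was 4.63 (log2, edgeR adjusted p = 1.45e-15).

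Gjc1, the gene of Cx45, was likewise vascular. Like Gja4, it passed the filter on low counts only through its endothelial-like and mural-like sums. Endothelial-like cells had 119, 85.3, 86.5 and 82.98 CPM (93.5 ± 17.2, SD, n = 4) and mural-like cells 133, 272, 253 and 132 CPM (198 ± 75.3). Every mural-like library was above every endothelial-like one, and the other types held 8 UMIs in all, 5 of them in podocyte-like cells. Against the mean of the other types it was higher by 4.55 in endothelial-like cells (log2, SE 0.335, edgeR adjusted p = 2.45e-21) and by 5.54 in mural-like cells (SE 0.428, adjusted p = 9.48e-20). Between the vascular types, Gjc1 was lower in endothelial-like than in mural-like cells by -0.79 (log2, SE 0.309, edgeR adjusted p = 0.0491; 9.95% of genes lower). That call was lost in 6 of 14 alternatives (adjusted p from 0.0103 to 0.305 over the 14), among them the fits without replicate 2 (0.194), without replicate 3 (0.305) and without replicate 4 (0.0735). It was also lost with no filter on low counts, with no replicate block and at 500 genes a cell.

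Gja4 and Gjc1 were lower in podocyte-like cells than in the mean of the other types, by -4.19 (SE 1.03, edgeR adjusted p = 4.48e-04) and -4.94 (SE 1.09, adjusted p = 9.56e-05), where 23.9% of genes were lower. In tubular-like cells the differences were -2.52 (SE 0.929, edgeR adjusted p = 0.0176) and -3.20 (SE 1.09, adjusted p = 0.00961; 23.7% of genes lower). In parietal epithelial-like cells they were -2.78 (SE 1.15, edgeR adjusted p = 0.105) and -1.94 (SE 1.38, adjusted p = 0.425; 5.36% of genes lower), and neither passed. All 4 calls in podocyte-like and tubular-like cells were lost without replicate 1, which held the single parietal epithelial-like UMI of either gene, so that this type was at 0 in the fit and no usable error was left.

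Gja5, the gene of Cx40, was sparse in Drop-seq, with 25 UMIs in 24 of the kept cells, and it did not pass the filter on low counts in any comparison. Endothelial-like cells had 2, 1, 3 and 5 UMIs in replicates 1 to 4 and mural-like cells had 2, 0, 2 and 6. The other types held 4 UMIs. Pooled over libraries this was 7.55 CPM in endothelial-like cells (95% Poisson interval 3.77 to 13.5), 33.4 CPM in mural-like cells (16.0 to 61.4) and 0.155 CPM in podocyte-like cells (0.0188 to 0.560). A fit with no filter on low counts gave 3.98 in mural-like cells (log2, SE 0.890, edgeR adjusted p = 2.58e-04; 3.68% of 27788 genes higher) and 1.85 in endothelial-like cells (SE 0.767, adjusted p = 0.0924; 10.2% higher) against the mean of the other types. All these intervals cover counting error only.

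**Figure D1:**
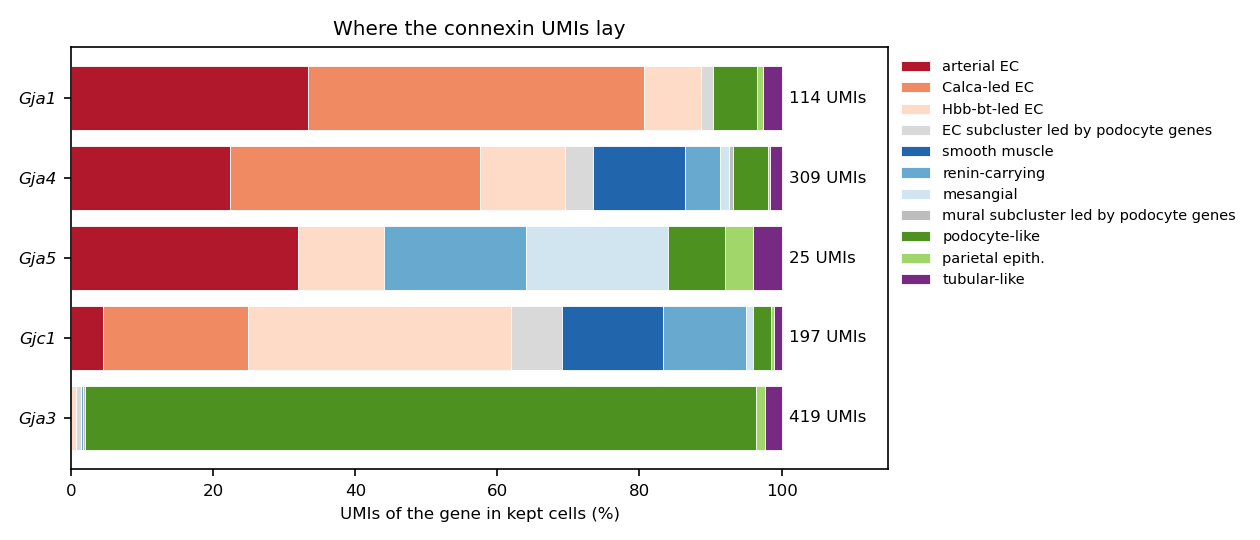
The bars show, for Gja1, Gja4, Gja5, Gjc1 and Gja3, the percentage of the gene's UMIs in kept cells (horizontal axis) that lay in each cell group, with the number of UMIs at the right; EC stands for endothelial cells. Red and orange (endothelial groups) fill most of Gja1, endothelial and blue (mural) groups share Gja4, Gja5 and Gjc1, and Gja3 is almost all podocyte-like green.

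Within the endothelium, Gja1 and Gja4 were highest in the arterial-type cells. Gja1 had 247, 468, 72.6 and 292 CPM in arterial-type cells of replicates 1 to 4 (5, 12, 2 and 19 UMIs), against 24.8, 38.8, 80.3 and 82.6 CPM in the other named endothelial-like cells. The arterial-type value of replicate 3 fell inside the range of the others. Gja4 had 395, 507, 508 and 523 CPM in arterial-type cells, against 112, 111, 144 and 185 CPM in the others, with no overlap. In edgeR's test both passed, Gja1 by 2.23 (log2, SE 0.455, adjusted p = 1.79e-04) and Gja4 by 1.89 (SE 0.301, adjusted p = 1.88e-06), where 8.44% of 2298 genes tested were higher. Without replicate 4, which held 19 of the 38 arterial-type UMIs, Gja1 fell below the filter on low counts and gave no value. Gjc1 had 49.4, 39.0, 36.3 and 92.2 CPM in arterial-type cells on 9 UMIs, against 153, 94.3, 108 and 78.7 CPM in the others, and the difference of -0.57 did not pass (SE 0.563, edgeR adjusted p = 0.603). Gja5 had 8 UMIs in arterial-type cells (1, 1, 1 and 5) and 3 in the others, 57.8 CPM (24.9 to 114) against 2.89 CPM (0.597 to 8.45). Without the filter its difference was 3.57 (log2, SE 1.22, edgeR adjusted p = 0.109; 0.542% of genes higher), so it did not pass over all genes. Red blood cell markers moved with the same split, at 0 UMIs in arterial-type cells and 5.55 to 3190 CPM over libraries in the others, and their part in these differences was not tested.

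The remaining endothelial cells were not alike. Gja1 averaged 120 ± 48.9 CPM in the Calca-led cells and 14.0 ± 13.8 CPM in the Hbb-bt-led cells (SD, n = 4 each), and the ranges, 52.6 to 161 and 0 to 32.3 CPM, did not overlap. Gja4 averaged 250.5 ± 61.3 CPM in Calca-led and 59.6 ± 30.1 CPM in Hbb-bt-led cells, again without overlap. For Gjc1 the means were 96.1 ± 33.7 CPM in Calca-led and 122 ± 41.5 CPM in Hbb-bt-led cells, with overlapping ranges. The Hbb-bt-led cells thus held the lowest endothelial Gja1 and Gja4 levels among the named groups and the highest endothelial Gjc1 mean. Red blood cell markers were higher in the same cells (score 1.78 in Hbb-bt-led, 0.426 in Calca-led cells), and their part in these differences was not tested. The contrasts themselves were not tested.

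Shares of cells told the same order. After every cell was thinned to 500 UMIs, a Gja4 UMI was found in 22.9% of 144 arterial-type cells (95% binomial interval 16.3 to 30.7) and 6.81% of 1130 other named endothelial-like cells (5.41 to 8.44). The background share in podocyte-like cells, which should lack Gja4, was 0.0405% of 9884. Unthinned, the shares were 27.4%, 8.35% and 0.142%, at median depths of 702, 616 and 1017 UMIs. Thinning left out 24 arterial-type, 343 other endothelial-like and 667 podocyte-like cells with fewer UMIs. For Gja1 the thinned shares were 9.72% in arterial-type cells (5.42 to 15.8), 2.48% in the others (1.65 to 3.56) and 0.0202% in podocyte-like cells. The binomial intervals pool the cells of all libraries and leave out the spread between libraries. Over libraries, the thinned Gja4 shares averaged 24.3 ± 4.85% in arterial-type cells and 6.66 ± 2.26% in the others (SD, n = 4). Those of Gja1 averaged 9.44 ± 6.54% in arterial-type cells and 2.34 ± 0.707% in the others.

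**Figure D2:**
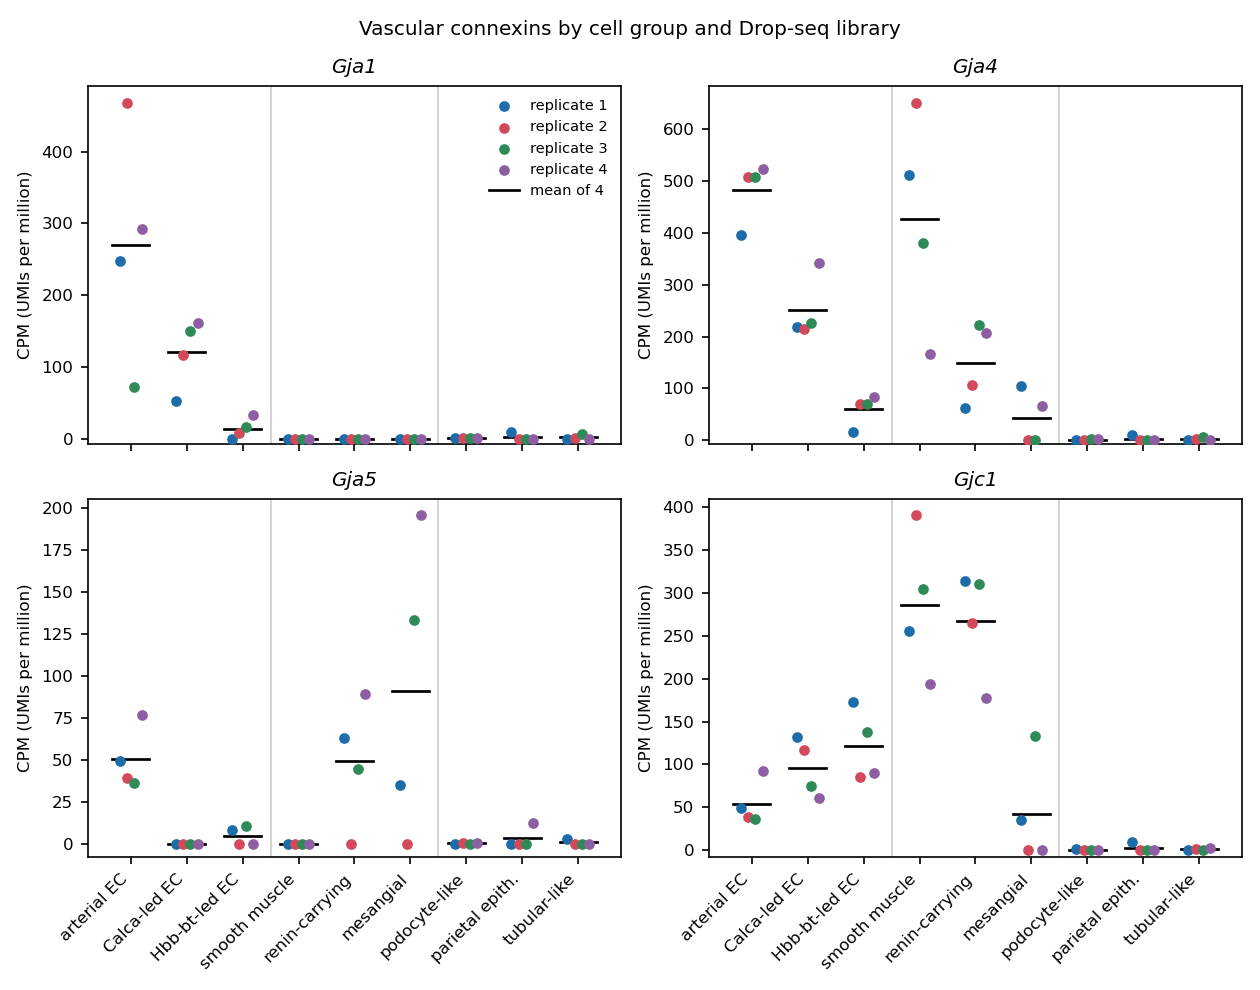
Each panel plots the CPM (of UMIs, vertical axis, a separate scale for each gene) of a member in 9 cell groups, with a point for each Drop-seq library and a line for the mean of 4; EC stands for endothelial cells. Gja1 points stand above 0 almost only in the 3 endothelial groups. Gja4 peaks in arterial EC (395 to 523 CPM) and in smooth muscle-type cells (166 to 651 CPM). Gjc1 peaks in smooth muscle-type and renin-carrying cells, and Gja5 rests on 5 to 8 UMIs in each of its 3 highest groups.

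In the mural wall, Gja4 was highest in smooth muscle-type cells, with 511, 651, 381 and 166 CPM in replicates 1 to 4 (428 ± 206, SD, n = 4). Renin-carrying cells had 62.7, 106, 222 and 208 CPM (149.6 ± 77.6), and mesangial-type cells 105, 0, 0 and 65.4 CPM on 4 UMIs. Mesangial-type cells numbered only 30, 4, 11 and 19 in replicates 1 to 4, so a 0 in replicate 2 says little. Renin-carrying and smooth muscle-type ranges overlapped, and at a subcluster resolution of 0.3 no smooth muscle-type group was named. Smooth muscle markers were higher in renin-carrying than in smooth muscle-type cells, opposite to the order of the Gja4 means. Gjc1 had 314, 265, 311 and 178 CPM in renin-carrying cells (267 ± 63.3) and 256, 391, 305 and 194 CPM in smooth muscle-type cells (286 ± 83.1), with overlapping ranges. Mesangial-type cells held 2 Gjc1 UMIs.

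Gja5 was sparse in the mural wall. Its 10 mural UMIs fell as 5 in mesangial-type cells (1, 0, 1 and 3) and 5 in renin-carrying cells (1, 0, 1 and 3), with 0 in the 123 smooth muscle-type cells. The pooled levels were 92.2 CPM in mesangial-type cells (95% Poisson interval 29.9 to 215) and 54.9 CPM in renin-carrying cells (17.8 to 128). A count of 0 in smooth muscle-type cells allows up to 28.6 CPM, close to or inside those intervals. Endothelial markers summed to 2287 CPM in mesangial-type cells (535 to 5076 over libraries), 638 CPM in smooth muscle-type and 264 CPM in renin-carrying cells, and their part in the Gja5 counts was not tested. Of the 9 mural-like cells with a Gja5 UMI, all 9 had a mural marker UMI and 4 an endothelial one, which 22.3% of all mural-like cells had.

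No member passed the filter on low counts in the test of renin-carrying against other mural-like cells, which kept 434 genes. In the fit with no filter, Gja4 differed by -0.95 (log2, SE 0.515), Gjc1 by 0.20 (SE 0.502) and Gja5 by 0.65 (SE 1.21), each with an edgeR adjusted p of 0.995 over 13987 genes, where 0.0929% were called higher and 0.257% lower. Contrasts between pairs of the mural groups, added after the data were seen, called no member either: smooth muscle-type against mesangial-type cells gave 2.43 for Gja4 (SE 0.776, adjusted p = 0.113) and 2.75 for Gjc1 (SE 0.931, adjusted p = 0.179), and -3.95 for Gja5 (SE 1.61, adjusted p = 0.505), where 0.768% of genes were called higher. Smooth muscle-type against renin-carrying cells gave -3.49 for Gja5 (SE 1.57, edgeR adjusted p = 1). Differences within the mural wall were thus not detectable at this depth.

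The order of the levels can be read from the group means over libraries. Gja1 was highest in arterial-type, then Calca-led, then Hbb-bt-led cells, and the first pair overlapped. Gja4 ran from arterial-type and smooth muscle-type cells through Calca-led, renin-carrying and Hbb-bt-led to mesangial-type cells, and each neighbour overlapped the next. Gjc1 ran from smooth muscle-type and renin-carrying cells through Hbb-bt-led, Calca-led and arterial-type to mesangial-type cells, with each neighbour overlapping the next except renin-carrying above Hbb-bt-led cells. Gja5 means of 91.2 ± 90.0 CPM in mesangial-type, 50.4 ± 18.5 in arterial-type and 49.0 ± 37.5 in renin-carrying cells overlapped in their ranges. All mesangial-type means include replicate 2, which had 4 such cells.

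Members were also found in the same cells. In endothelial-like cells, 24 had UMIs of both Gja1 and Gja4, against 7.20 from the product of their shares, and 16 had both Gja4 and Gjc1, against 11.3. Gja1 and Gjc1 were together in 5 cells, against 4.64. In mural-like cells, 13 had both Gja4 and Gjc1, against 5.33. Gja5 was found with Gja4 in 3 endothelial-like cells, against 1.07, and with Gja1 or Gjc1 in 0 cells, against 0.44 and 0.69 in endothelial-like cells. In mural-like cells Gja5 was found with Gja4 and with Gjc1 in 0 cells, against 1.20 and 1.11. With products this small, a count of 0 says little. Pairs share a cell's depth, which raises all such counts. The products also take each type as a whole, though Gja1 and Gja4 both differed between endothelial groups, which raises their joint count too. These counts are thus descriptions.

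Connexins are assembled, tethered and degraded with partner proteins. Of the 22 genes listed as partners and turnover factors, 17 were tested by type, and 8 were higher and 0 lower in endothelial-like cells (median log2 difference 0.33, against 0.09 over all genes, of which 30% were higher and 18.4% lower). The largest were Smurf2, a ubiquitin ligase of connexin turnover (1.83, SE 0.209), Mapk3 (1.68, SE 0.195) and Prkce (1.62, SE 0.231), kinases that phosphorylate connexins. In mural-like cells 0 of 17 were higher and 2 lower, where 12.4% of all genes were higher and 8.02% lower, so the lower count was near the share over all genes. The pair were Tjp1, the scaffold ZO-1 that binds connexin tails (-0.70, SE 0.250), and the autophagy receptor Sqstm1 (-0.65, SE 0.143). Tjp1 was higher in podocyte-like cells by 1.25 (SE 0.0987), and there 3 of the 17 were higher and 6 lower, against 21.1% and 23.9% of all genes. In arterial-type cells 1 of 9 was higher and 1 lower, near the shares of 8.44% and 6.61% over all genes: the ubiquitin ligase gene Wwp1 was higher by 2.42 (SE 0.424, edgeR adjusted p = 1.29e-05) and Prkce lower by -3.79 (SE 0.946, adjusted p = 0.00251).

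Most regulators of arterial identity and flow were higher in endothelial-like cells. Of 16 tested, 11 were higher and 3 lower in endothelial-like cells (median 3.21), where 30% of all genes were higher and 18.4% lower, so that the lower count was near the share over all genes. The higher ones were led by the transcription factor genes Sox18 (7.53, SE 0.384), Sox17 (7.21, SE 0.247), the Notch ligand gene Dll4 (6.58, SE 0.410) and Sox7 (6.18, SE 0.479). The lower ones were Nr2f2, a venous regulator (-2.12, SE 0.177), Foxc1 (-1.50, SE 0.268) and Foxc2 (-0.97, SE 0.270). In arterial-type cells 5 of 10 were higher and 0 lower (median 0.72, against -0.02 over all genes, of which 8.44% were higher): the Notch ligand gene Jag1 (4.07, SE 0.262), the flow-induced factor Klf2 (1.96, SE 0.155), Notch4 (1.85, SE 0.470) and Sox18 (1.17, SE 0.349) were the largest. In mural-like cells 8 of 16 were higher and 0 lower, where 12.4% of all genes were higher, led by the Notch target gene Hey2 (4.50, SE 0.786) and Jag1 (2.71, SE 0.359). In renin-carrying cells Klf2 was the only one of 3 tested to pass (1.51, SE 0.197, edgeR adjusted p = 1.29e-05), where 9.45% of 434 genes were higher and 6.68% lower.

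Most receptors and cyclic nucleotide enzymes that act on vessel tone and renin were higher in mural-like cells. Of 12 tested, 9 were higher and 0 lower there (median 2.76, against -0.08 over all genes, of which 12.4% were higher and 8.02% lower). Prkg2, the cGMP-dependent kinase that restrains renin release (9.64, SE 0.604), the endothelin receptor gene Ednra (8.35, SE 0.846), and Gucy1b3 and Gucy1a3, subunits of the nitric oxide receptor (7.96, SE 0.425, and 7.94, SE 0.473), were the largest. In endothelial-like cells 2 of 12 were higher and 2 lower, no more than near the shares over all genes (30% and 18.4%). The higher were Nos3, which makes nitric oxide (5.48, SE 0.269), and the endothelin receptor gene Ednrb (5.21, SE 0.119), and the lower Pde3a (-1.19, SE 0.211) and Ptger4 (-0.89, SE 0.338). In arterial-type cells 2 were tested, and Ednrb was lower by -2.81 (SE 0.229, edgeR adjusted p = 6.44e-15).

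Over 31 sums of 8 cell groups and the libraries, the genes most like Gja1 by Pearson correlation of log2(CPM + 10) were Dhh (0.958), Serpina1b (0.954) and 9130208D14Rik (0.949). Those most like Gja4 were Apold1 (0.918), Crip1 (0.899) and Lrrc32 (0.891); Crip1 is also among the markers used to name arterial-type cells. For Gjc1 they were Sncg (0.937), Mef2c (0.929) and Gng11 (0.919), and for the sparse Gja5 they were Btg1 (0.778), Gm26771 (0.741) and Igfbp4 (0.719). The sums share libraries and depth, and 7035 genes were compared.

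In bulk, all 4 members had a lower CPM in dissociated cells than in whole glomeruli, and Gja5 by far the most. There was 1 library of each kind, so the differences have no replicate check, and fewer cells of a type and less RNA per cell cannot be told apart. Gja5 had 145 counts in dissociated cells (5.90 CPM), against 9995 counts in whole glomeruli (352 CPM), a log2 ratio of -5.57 after TMM scaling (counting interval -5.83 to -5.35). It was 47.4-fold higher in whole glomeruli, at rank 117 from the lowest of 12692 genes. Gjc1 had 351 counts in dissociated cells (14.3 CPM), against 1959 in whole glomeruli (69.0 CPM), a log2 ratio of -1.95. Gja4 had 796 counts in dissociated cells (32.4 CPM), against 3007 in whole glomeruli (106 CPM), a log2 ratio of -1.39. Gja1 had 137 counts in dissociated cells (5.58 CPM), against 258 in whole glomeruli (9.08 CPM), a log2 ratio of -0.38 (counting interval -0.70 to -0.08). Thus 3 of the 4 members were lower by at least 2-fold, as were 18.9% of the genes compared.

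**Figure D3:**
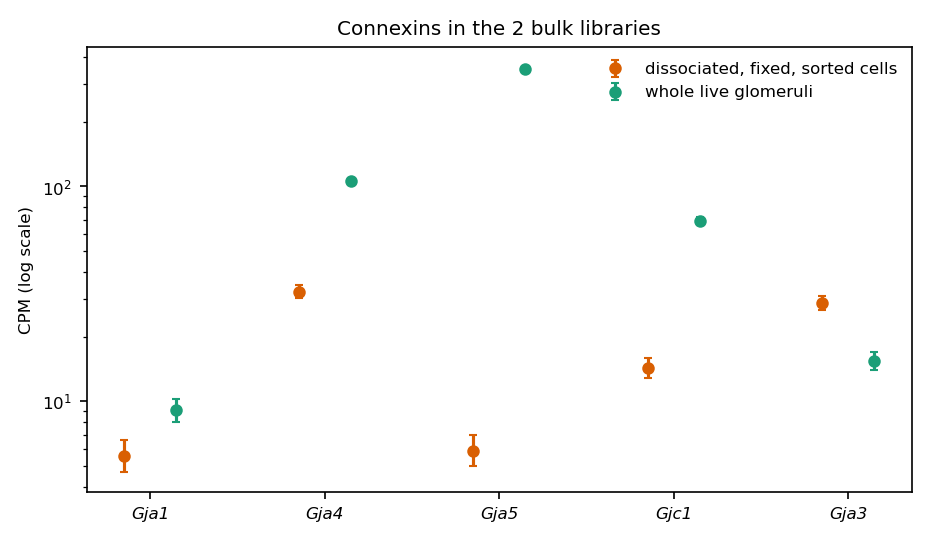
Points show the CPM (of reads on genes, log scale) of 5 connexins in the dissociated (orange, left) and whole (green, right) bulk library, with 95% Poisson intervals that cover counting error only. Gja5 stands at 5.90 CPM in dissociated cells and 352 CPM in whole glomeruli, and Gja3 is the single gene of the 5 that is higher in dissociated cells.

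The mix of connexins therefore differed between the preparations. Shares between genes depend on the lengths used, here the union of all GENCODE exons of a gene. These were 10257 bases for Gja1, 1685 for Gja4, 5746 for Gja5 and 5003 for Gjc1. The lengths of the transcripts present were not measured. On this scale of CPM per kilobase of exon, Gja4 made up 81.3% of the sum of the 4 members in dissociated cells and 45.3% in whole glomeruli. Gja5 made up 4.34% in dissociated cells and 44.1% in whole glomeruli. Gjc1 made up 12.1% in dissociated cells and 9.94% in whole glomeruli, and Gja1 2.30% and 0.638% in the same order. The sum itself was 23.7 CPM per kilobase in dissociated cells and 139 in whole glomeruli. In whole glomeruli, Gja4 and Gja5 were nearly level with these lengths, at 62.8 and 61.2 CPM per kilobase, while their counts were 3007 and 9995.

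Cell type markers moved in the same libraries. Mesangial markers were lower by at least 2-fold in 8 of 8 cases (median log2 ratio -4.95, range -6.76 to -2.77), and summed to 201 CPM in dissociated cells and 4896 CPM in whole glomeruli. Endothelial markers were lower in 7 of 9 (median -1.62, summed to 1649 CPM in dissociated cells and 6120 CPM in whole glomeruli), and those of the glomerular capillary, among them Ehd3 (-3.59), in 8 of 9 (median -2.90). Of the 5 smooth muscle and renin markers compared, 1 was lower (median -0.11, summed to 404 CPM in dissociated cells and 583 CPM in whole glomeruli), with Ren1 at -0.11. The smooth muscle list used for the mural subclusters moved more. Of its 4 markers compared, 2 were lower, Myl9 (-2.93) and Tpm2 (-1.63), with a median of -0.91 (range -2.93 to 0.06). Of the 13 arterial markers compared, 7 were lower and 2 higher (median -1.10, range -2.53 to 1.48). Podocyte markers were higher in 5 of 8 (median 1.09), and tubular markers lower in 3 of 10 (median -0.40, range -7.64 to 0.54), among them Lrp2 (-5.71) and Slc34a1 (-7.64). Of all 12692 genes, 10.7% were higher by at least 2-fold. Gja5 lay within the ranges of the mesangial and the tubular markers. All of Gja1, Gja4 and Gjc1 lay within the endothelial (-2.90 to -0.32) and tubular ranges, and Gja1 and Gja4 also within that of the smooth muscle and renin markers (-1.55 to 0.16). The ranges of the subcluster smooth muscle and arterial lists held Gja1, Gja4 and Gjc1 as well. The part of these cell types in the members' differences was not tested.

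**Figure D4:**
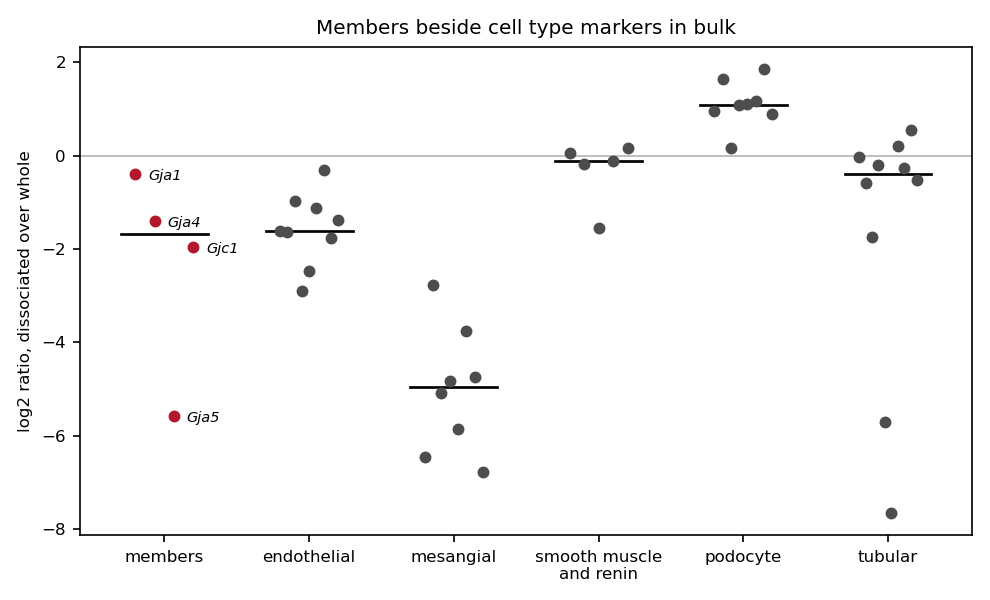
Each point is the log2 ratio of dissociated over whole bulk counts (vertical axis) of a gene, for the 4 members (red, named) and for 5 marker lists (grey), with a line at each median. Gja5 at -5.57 lies within the range of the mesangial (-6.76 to -2.77) and of the tubular markers (-7.64 to 0.54), while Gja1, Gja4 and Gjc1 lie between -0.38 and -1.95.

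The pathway lists differed in bulk. Of all genes, 18.9% were lower and 10.7% higher by at least 2-fold. Of the 19 arterial and flow regulators, 12 were lower and 1 higher by at least 2-fold in dissociated cells (median -1.32, against -0.01 over all genes), with Hey1 (-2.86), Notch4 (-2.44), Sox18 (-2.29) and Jag1 (-2.24) the lowest and Foxc2 the higher one (1.14). Of 14 genes of vasoactive and renin signalling, 6 were lower and 0 higher: Gucy1a3 (-5.48), the angiotensin receptor gene Agtr1a (-5.03), Gucy1b3 (-4.61) and Ednra (-3.20) were the lowest. Of the 22 partners, 6 were lower, near the share over all genes (list median -0.31), led by the kinase gene Src (-3.13), Dbn1, a connexin-binding actin protein (-2.50), the kinase gene Prkca (-2.26) and the cadherin gene Cdh2 (-2.08), and 1 was higher, Sqstm1 (2.43).

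The Drop-seq libraries, made from dissociated cells as well, gave mean levels of Gja4, Gja5 and Gjc1 nearer to the dissociated than to the whole bulk library, while those of Gja1 spanned both. Over all barcodes Gja5 had 1.69 ± 1.19 CPM in Drop-seq (SD, n = 4), against 5.90 CPM in dissociated bulk and 352 CPM in whole glomeruli. Gja4 had 19.3 ± 8.79 CPM in Drop-seq, against 32.4 and 106 CPM in the bulk libraries, Gjc1 12.1 ± 4.93 against 14.3 and 69.0 CPM, and Gja1 7.16 ± 3.88 (3.43 to 11.1) against 5.58 and 9.08 CPM. UMIs and reads are different units, so these values stand side by side without a test.

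Of the 19 other connexin and pannexin genes, Gja3, Gjb2 and Panx1 reached 20 UMIs in kept cells or 100 counts in a bulk library. Gja3, known from the lens, had more UMIs than any member, and 94.5% of its 419 UMIs lay in podocyte-like cells, at 31.2, 32.5, 29.6 and 28.2 CPM in replicates 1 to 4 (30.4 ± 1.89, SD, n = 4). Endothelial-like cells had 6 Gja3 UMIs and mural-like cells 2. Gja3 did not pass the filter. With no filter it was higher in podocyte-like cells than in the mean of the other types by 2.46 (log2, SE 0.305, edgeR adjusted p = 2.70e-14; 14.9% of genes higher). In bulk it had 703 counts in dissociated cells, against 439 in whole glomeruli (log2 ratio 1.20), beside podocyte markers at a median of 1.09. Gjb2 had 2 counts in dissociated cells, against 148 in whole glomeruli, and Panx1 had 48, against 120.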

How the data were processed

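The authors deposited Drop-seq tables of UMI counts per gene and barcode and bulk tables of read counts per gene with HTSeq summary lines. STAR and HTSeq are named in the submitters' processing notes, without versions. Build, annotation and strand setting are not given in the sources used here; per the labels' protocols the bulk kit was strand-specific. Summary lines (24.8% of dissociated and 22.9% of whole reads) were left out, leaving 24555632 dissociated and 28407317 whole reads on genes. Per library, 3528543 to 6411775 UMIs were counted.

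Counts were scaled to 10000 UMIs a cell and clustered with scanpy 1.11.5 (2000 variable genes, 30 principal components, 15 neighbours, Leiden resolution 1.0), then subclustered (1000 genes, 20 components, resolution 0.5). Scrublet marked 14 of 13993 cells, too few to have worked, so none was removed. Counts of every pair of libraries differed beyond sampling noise (chi-square over degrees of freedom 4.37 to 14.1), so none was counted as 1. Counts were summed per library and type (at least 20 cells, 10 for subgroups) and tested with edgeR 4.0.16 (TMM, library as block, quasi-likelihood test, Benjamini-Hochberg adjusted p under 0.05 over all genes). Each SE printed was derived from the test, as the absolute log2 difference over the square root of its F statistic. The scripts were tested on simulated data with known changes. The labels' library numbers paired the sums, which came from the same library: their deviations correlated at a median of 0.0693 by type, 0.0751 by endothelial and 0.140 by mural group. Bulk genes with at least 100 counts over both libraries together were compared as log2 ratios (TMM, prior count 2), with no test.

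Named were the 4 members, other family genes with at least 20 UMIs or 100 bulk counts, up to 4 genes per list and direction past the threshold, the 3 genes most like each member (at least 50 CPM in a group), markers where naming is described, and the 3 leading genes of each group. Members and lists were chosen with earlier results of these data known. Alternatives were DESeq2 1.42.0, scaling by totals, no filter, no block, each library left out, other cell limits, other resolutions, other bulk priors, and thinning to 800 UMIs. Nothing in the labels ties the 4 libraries to separate mice, so p-values speak only of variation from library to library, possibly technical.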

Additional observations from a re-analysis of the deposited data

Results flagged for a closer look

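A library stood apart from the other 3 in 3 of 18 sets of 4 library values looked at (a member in a group with at least 20 UMIs); chance flags about 1 set in 20. Gjc1 in endothelial-like cells was highest in replicate 1, at 119 CPM, with 82.98 to 86.5 CPM in the others. Gja4 in arterial-type cells was lowest in replicate 1, at 395 CPM on 8 UMIs, with 507 to 523 CPM in the others. Gja4 in the Calca-led endothelial cells (endothelial subcluster 1) was highest in replicate 4, at 342 CPM, with 215 to 226 CPM in the others.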

How the results depend on the processing

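Of the 261 alternative values computed for the members, 240 kept their direction and side of the threshold or moved by less than their spread, and 0 turned round. Alternatives that gave no value are not among the 261. Gja1 had 12 values for each pair of types, where Gja4 had 14 for its pair, and arterial-type Gjc1 had 10, where Gja4 had 13. Gja5 in Drop-seq and the mural subgroups are not among the 261 either. Arterial-type Gja1 kept its call in 9 alternatives (1.72 to 3.14; 1.74 to 2.68 when replicates 1 to 3 were left out in turn); without replicate 4, at the mitochondrial limit of 10%, at 500 genes a cell and without cells carrying mural markers it fell below the filter and gave no value. Arterial-type Gja4 kept its call in 13 (1.36 to 2.47). With no replicate block, Gjc1 in endothelial-like against mural-like cells was -0.78 (adjusted p = 0.0537), with no filter -0.67, at 500 genes a cell -0.80, and -1.09 to -0.60 with a replicate left out; the block changed no other call. Leave-one-out values against the mean of the other types, lost only without replicate 1, ran as follows: Gja4 -4.70 to -3.15 in podocyte-like and -3.14 to -1.24 in tubular-like cells, Gjc1 -5.04 to -4.46 in podocyte-like and -4.09 to -1.85 in tubular-like cells. At 500 genes a cell Gjc1 was -3.71 in podocyte-like and -2.16 in tubular-like cells, without a usable error; the cause was not tested. At the mitochondrial limit of 10%, Gja4 in parietal epithelial-like cells was -3.55 and passed (-2.78 as reported, adjusted p = 0.105). Scaling bulk counts by totals moved the median of all genes to -0.32 and gave -1.71 for Gja4, -5.88 for Gja5 and -2.27 for Gjc1. Thinning to 800 UMIs, which by construction finds more cells, gave a UMI in 5.01% (Gja1), 12.7% (Gja4) and 6.19% (Gjc1) of endothelial-like cells and 12.7% (Gja4) and 14.4% (Gjc1) of mural-like cells. Sparse counts limit Gja5 and every mural subgroup.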

Other observations

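The 53 immune-like cells had 0 UMIs of all 4 members, which allows up to 63.3 CPM. The liver connexin gene Gjb1, named here after its values were seen, had 10 UMIs, all in tubular-like cells, and 3 counts in dissociated cells beside 49 in whole glomeruli. The 209 endothelial-like cells led by podocyte genes had 45.9 ± 33.7 CPM of Gja4, 59.1 ± 33.1 CPM of Gjc1 and 5.33 ± 6.17 CPM of Gja1 (SD, n = 4).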
